A study of Mus musculus with 42 samples.

Results

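The genes described here are 10 transcription factor genes listed as regional identity factors of limb and head. These are 7 T-box genes (Tbx1, Tbx2, Tbx3, Tbx4, Tbx5, Tbx15 and Tbx18), the paired-type homeobox gene Pitx1, and the basic helix-loop-helix genes Tcf21 and Msc. Whether they mark the position of the muscle cells themselves was not tested. They were taken by symbol from the 24466 genes in the count tables, and all 10 symbols were present. Mouse iPax7 cells are muscle precursors made from an embryonic stem cell line that carries a doxycycline (Dox)-inducible Pax7 transgene, sorted from embryoid bodies as PDGFαR+ Flk-1- cells. RNA was sequenced from iPax7 cells kept in 0.75 µg/ml Dox (+Dox, 3 libraries), from iPax7 cells 3 days after Dox was withdrawn (-Dox, 2 libraries), and from satellite cells isolated from mouse skeletal muscle with a Pax7-ZsGreen reporter (3 libraries). Age and sex of the mice are not given in the sources used here, and nothing says that libraries of one group came from separate cultures or animals, so the p-values measure the spread between libraries only. Peak sets from ATAC-seq, which maps open chromatin, and from ChIP-seq of 4 histone marks cover iPax7 cells with Dox and 3 days after withdrawal. They also cover C2C12 cells, a mouse myoblast line, carrying Flag-tagged Pax7 or a Flag control and grown in 10% fetal bovine serum. Pax7 sites from ChIP-seq come from +Dox iPax7 cells alone, and the authors had removed peaks also found without Dox. Pax7 binding after withdrawal was not examined here. ATAC-seq further covers iPax7 cells at 12 h and 24 h after withdrawal, C2C12 myoblasts with neither construct named in 10% serum, myotubes made from iPax7 and from C2C12 cells in 2% horse serum, and hind limb satellite cells taken in vivo.

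T-box factors bind DNA through a shared domain and lay out limb, heart and pharyngeal structures in the embryo. Tbx5 marks the forelimb, Tbx4 and Pitx1 the hind limb, and Tbx2 and Tbx3 pattern the limb and repress cell cycle inhibitors. Tbx1, Tcf21 and Msc act upstream of the myogenic factors in the muscles of the jaw and face, where the limb and trunk regulator Pax3 is not used, whereas Tbx15 and Tbx18 belong to limb, trunk and craniofacial mesenchyme, and Tbx15 is also used in glycolytic fibres. H3K4me3 marks promoters, H3K4me1 and H3K27Ac mark enhancers (H3K27Ac the active ones), and H3K27me3 is the mark of Polycomb repression, often broad over developmental regulators.

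Gene counts per library ran from 39010958 to 54674619, lower in the satellite cells than in every iPax7 library. Pax7 transcripts, which check the Dox labels, had normalized counts of 12759, 14130 and 11610 in +Dox, 220.6 and 269.5 in -Dox, and 8504, 3926 and 5456 in satellite cells. Reads set aside as not uniquely placed made up 23.6 to 30.7% in satellite cells and 7.11 to 7.60% in iPax7 cells. Summed levels of markers listed for other cell types also stood higher in the satellite cells. The sum of 5 endothelial markers was 289 to 423 CPM (each count scaled to library size) there and 0.0194 to 3.52 CPM in iPax7 cells. Pecam1, Cdh5, Kdr, Tek and Emcn were all detected in each satellite library, and 3 or 4 of the 5 were at 0 in each iPax7 library. The sum of 5 mural markers was 259 to 514 CPM against 0.963 to 11.4 CPM, that of 7 fibroblast markers 1545 to 2563 CPM against 97.2 to 286 CPM, that of 3 Schwann cell markers 33.2 to 59.9 CPM against 0.0159 to 1.94 CPM, that of 3 tendon markers 23.7 to 36.3 CPM against 1.97 to 4.14 CPM, and that of 5 blood markers 14.2 to 55.1 CPM against 3.33 to 9.80 CPM. Not every gene followed its sum. The tendon gene Scx had means of 99.6 normalized counts in +Dox, 169 in -Dox and 17.6 in satellite cells. The fibroblast gene Ly6a had means of 5063, 1418 and 2623. The fibroblast list also held Cd34 (mean of 14049 in satellite cells), which the paper names among surface markers that may matter for satellite cells. In bulk RNA, more cells of a type and more RNA per cell cannot be told apart, and the part of these cell types in the satellite-cell values of the 10 genes was not tested. Cell source and library preparation also cannot be told apart.

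Of the 10 genes, 6 passed the filter on low counts and were tested: Tbx1, Tbx2, Tbx3, Tbx4, Tbx15 and Msc. Tbx4 and Msc passed through the satellite cells alone. The other 4 had almost no reads. Pitx1 and Tcf21 had 0 counts in all 8 libraries, which allows up to 0.0549 to 0.0769 CPM per library (3 counts, counting error only). Tbx5 had 1 count in one satellite library and 0 in the other 7. Tbx18 had at most 4 counts in any library. Of the pair that set forelimb against hind limb, then, Tbx5 was near 0 in satellite cells and Tbx4 was not, while the second hind limb gene, Pitx1, had no read.

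**Figure D1:**
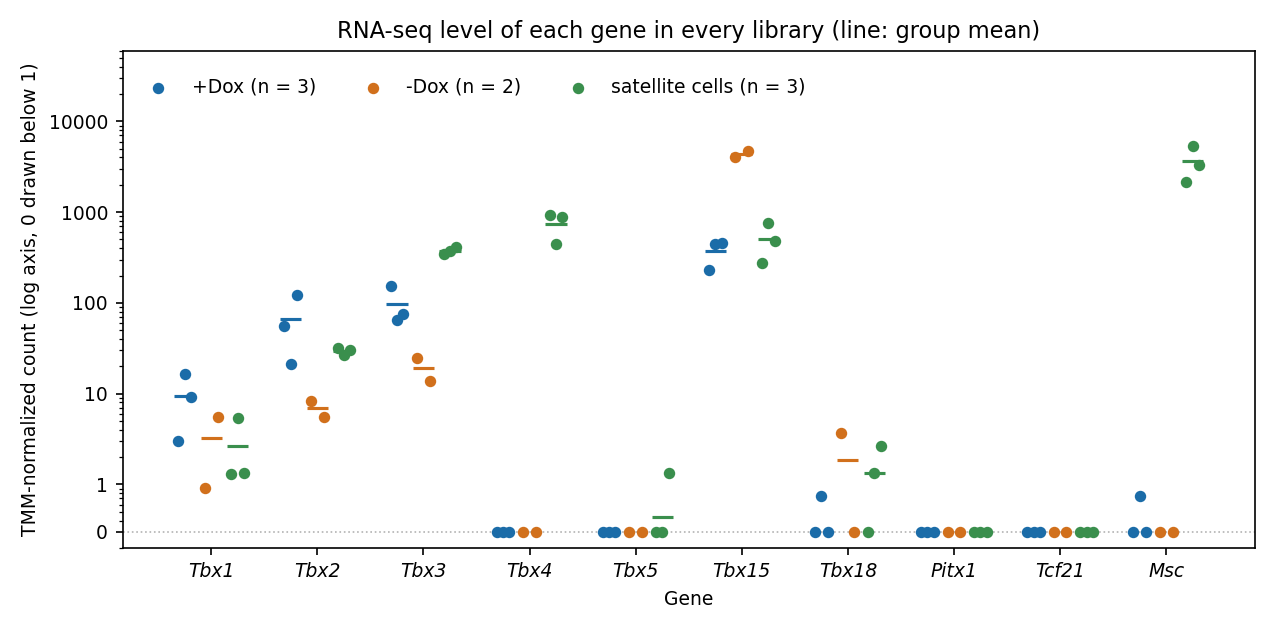
TMM-normalized counts (log axis, with 0 drawn below 1) of each of the 10 genes in every library. Points are libraries and lines are group means. Tbx15 stood highest in the 2 -Dox libraries, at 4008 and 4679, Tbx4 and Msc were high in satellite cells and at or near 0 in iPax7 cells, and Pitx1 and Tcf21 were at 0 throughout.

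Tbx15 was the gene of this set that rose on Dox withdrawal. Tbx15 (ENSMUSG00000027868.5) lies at chr3:99044304-99158182 on the plus strand of mm9. Its normalized counts were 228.3, 447.3 and 452.6 in +Dox, 4008 and 4679 in -Dox, and 273.8, 752 and 482.7 in satellite cells. Both -Dox libraries stood above all other libraries, and the +Dox and satellite-cell ranges overlapped. The means were 376 ± 128 (SD, n = 3), 4343 ± 475 (SD, n = 2) and 503 ± 240 (SD, n = 3). Against +Dox, Tbx15 was 11.5-fold higher in -Dox (log2 fold change 3.53, SE 0.48, adjusted p = 0.0023, quasi-likelihood test in edgeR, with p-values adjusted by Benjamini-Hochberg over 14836 genes). Against satellite cells it was 8.64-fold higher in -Dox (log2 fold change 3.11, SE 0.48, adjusted p = 0.0010). Between +Dox and satellite cells the log2 difference was -0.42 (SE 0.42), with an edgeR adjusted p of 0.45. Per length, on the scale of CPM per kilobase of exon (RPKM), Tbx15 went from 2.12 in +Dox to 24.5 in -Dox, above 44.7% and 83.2% of the genes with a count in the respective group.

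Tbx15 was 1 of 6 tested members called higher in -Dox than in +Dox, where 4.66% of all 14836 genes were. In the other direction edgeR called 0 of 6, where 3.04% of all genes were called lower in -Dox, although 2 of the 6 had an unadjusted p under 0.05, and DESeq2 called those 2. They were the repressors Tbx2 and Tbx3. The median log2 difference over the 6 was -1.59, and over all genes tested it was -0.0049. Tbx4 and Msc, counted among the 6, had 1 count at most in the 5 iPax7 libraries together, so this comparison cannot be read for them. The median of the 6 lay between the values of Msc (-1.66) and Tbx1 (-1.52, not called), so it does not show a shift of the set.

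Tbx3 followed the order satellite cells, +Dox, -Dox. Tbx3 (ENSMUSG00000018604.11, chr5:120120678-120134733, plus strand) had normalized counts of 153.2, 64.4 and 75.6 in +Dox, 24.8 and 13.8 in -Dox, and 346.2, 371.3 and 408.8 in satellite cells. No 2 of the 3 groups overlapped. It was 3.84-fold higher in satellite cells than in +Dox (log2 difference, +Dox minus satellite cells, -1.94, SE 0.64, edgeR adjusted p = 0.034) and 19.3-fold higher than in -Dox (-4.27, SE 0.85, edgeR adjusted p = 0.0038). Between -Dox and +Dox the log2 difference was -2.33 (SE 0.77), with an adjusted p of 0.10 in edgeR and 0.0062 in DESeq2. The call between +Dox and satellite cells rested on single libraries: without +Dox replicate 2 or 3, the adjusted p was 0.12 or 0.079, and without satellite-cell replicate 2 or 3 it was 0.058 or 0.064. The first exon of Tbx3 overlaps the antisense gene Gm2301, and reads of the pair cannot be told apart if strand was not used in counting.

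Tbx2 and Tbx1 were low. Tbx2 (ENSMUSG00000000093.6, chr11:85646053-85655450, plus strand), the close relative of Tbx3, had normalized counts of 56.3, 21.5 and 122 in +Dox, 8.27 and 5.54 in -Dox, and 31.6, 26.8 and 30.3 in satellite cells. The -Dox libraries lay below all the others, and the satellite-cell values lay inside the +Dox range. The log2 difference was -3.25 (SE 1.39) between -Dox and +Dox and -2.08 (SE 1.31) between -Dox and satellite cells, with edgeR adjusted p of 0.21 and 0.23. DESeq2 gave an adjusted p of 0.038 for the first. Tbx1 (ENSMUSG00000009097.8, chr16:18581806-18588113, minus strand), the pharyngeal and head muscle regulator, had 1 to 22 raw counts in every library. Its normalized counts were 3, 16.3 and 9.11 in +Dox, 0.919 and 5.54 in -Dox, and 1.32, 5.36 and 1.32 in satellite cells, and none of its 3 comparisons was called (edgeR adjusted p of 0.73, 0.39 and 0.92).

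**Figure D2:**
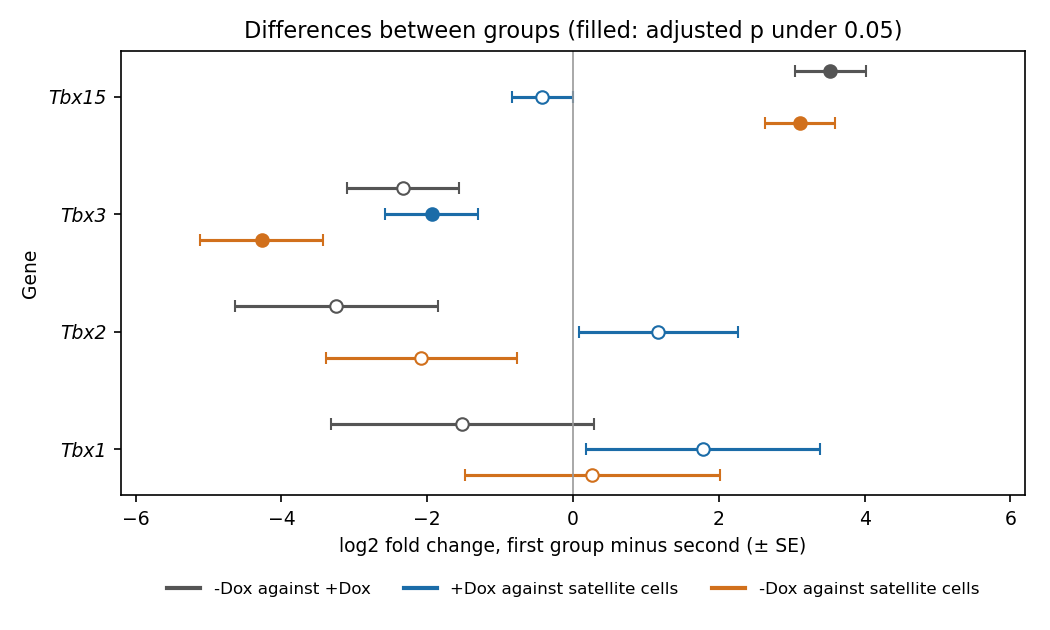
Log2 fold change (first group minus second, x axis, bars are ± SE) of the 4 tested genes with reads in all 3 groups, for each of the 3 comparisons. Filled points passed an adjusted p of 0.05 in edgeR: Tbx15 in both comparisons with -Dox, at 3.53 and 3.11, and Tbx3 in both comparisons with satellite cells, at -1.94 and -4.27.

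Tbx4 and Msc had reads in satellite cells and next to none in iPax7 cells. Msc (musculin, ENSMUSG00000025930.5, chr1:14743427-14746047, minus strand), a repressor of E-box genes, had raw counts of 1636, 4007 and 2519 in the 3 satellite libraries, a single count in +Dox replicate 2 and 0 in the other 4 iPax7 libraries. Its satellite-cell mean of 44.5 ± 20.1 RPKM (SD, n = 3) was above 91.8% of the genes with a count there, and the highest of the 10 genes. The ratio of satellite cells to +Dox was 13628, with a 95% counting interval of 2445 to 538330 since it rests on 1 count, and satellite cells were at least 2610-fold higher than -Dox (floor of 3 counts over the group). Msc shares its first exon with Gm9947 on the opposite strand, so the strand limit given for Tbx3 holds here.

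Tbx4 (ENSMUSG00000000094.6, chr11:85699924-85729599, plus strand) lies next to Tbx2. It had 700, 334 and 664 raw counts in satellite cells and 0 in all 5 iPax7 libraries, and satellite cells were at least 945-fold higher than +Dox and at least 543-fold higher than -Dox (floor of 3 counts over the group). The satellite-cell mean was 4.65 ± 1.62 RPKM (SD, n = 3). Msc was highest in satellite replicate 2, where the endothelial (423 CPM) and mural (514 CPM) sums were also highest. Tbx4 was lowest there, as were the Schwann cell (33.2 CPM), blood (14.2 CPM), tendon (23.7 CPM) and myogenic (4488 CPM) sums. The fibroblast sum followed neither order, at 2563, 2235 and 1545 CPM in replicates 1, 2 and 3. The myogenic sum includes Chodl, which ranged from 38695 to 142064 normalized counts over the satellite libraries. Orders over 3 libraries cannot tie a gene to a cell type, and the source of either transcript was not tested. EdgeR's adjusted p was 0.00026 and 0.00073 for Tbx4 against +Dox and -Dox, and 1.46e-05 and 6.05e-05 for Msc.

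With Tbx3, these made 3 of 6 tested members higher in satellite cells than in +Dox, where 25.1% of all genes were, and 3 of 6 higher than in -Dox, where 20.9% were. No tested member was called higher in +Dox than in satellite cells by edgeR, by DESeq2 or at an unadjusted p under 0.05, where 19.8% of all genes were called. Tbx15 was the 1 of 6 higher in -Dox than in satellite cells, where 18.1% were. Since Tbx4 and Msc were tested only because satellite cells express them, these counts describe the set and are no support for a shift of it. The 3 comparisons share their libraries in pairs.

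By length, the order of the levels in satellite cells was Msc (44.5 RPKM), Tbx4 (4.65), Tbx15 (2.84), Tbx3 (1.48), Tbx2 (0.173) and Tbx1 (0.0311), with the rest at or under 0.00599. The library ranges of neighbours overlapped for Tbx4 and Tbx15 and for Tbx15 and Tbx3, and for no other pair among these 6. In +Dox the order was Tbx15 (2.12), Tbx2 (0.388), Tbx3 (0.385) and Tbx1 (0.111), and among these neighbours only the library ranges of Tbx2 and Tbx3 overlapped. In -Dox Tbx15 stood at 24.5 RPKM, above Tbx3 (0.0762), Tbx2 (0.0403) and Tbx1 (0.0377), and only Tbx2 and Tbx1 overlapped as neighbours.

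The genes most like each of the 4 most abundant members were found by Pearson's r of log2 CPM over the 8 libraries, as a description in which the 3 group levels set most of r. Slc22a17 (r = 0.979) and Dnajb11 (r = 0.978) were the most like Tbx15, with 173 genes above an r of 0.9. Dnajb11 had normalized counts of 2045 to 2422 in +Dox, 5825 and 6517 in -Dox, and 1881 to 2615 in satellite cells. Camsap2 (r = 0.990) and Adarb1 (r = 0.989) were the most like Tbx3. For Msc (C230004F18Rik and Ackr2) and Tbx4 (Gpr65 and Lax1) all 4 genes were at 0 in every iPax7 library, and 1899 and 1855 genes had an r above 0.9, so the likeness is that of any gene read in satellite cells alone.

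Further members of the T-box family were listed in full. Of 10 further T-box genes, 2 were tested, and Tbx6, a regulator of paraxial mesoderm, was called: 6, 16 and 6 raw counts in +Dox, 32 and 19 in -Dox, and 340, 239 and 421 in satellite cells, where it was 59.5-fold higher than in +Dox (edgeR adjusted p = 0.00042) and 18.7-fold higher than in -Dox (edgeR adjusted p = 0.0048).

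Genes that work beside the members in head and limb muscle were called in both directions against satellite cells, where many genes were: 19.8% of all genes were called higher in +Dox and 25.1% lower, and 18.1% higher in -Dox and 20.9% lower. Of 10 head muscle genes, 7 were tested. Ebf1 and Ebf3 were called higher in satellite cells than in +Dox, and Ebf1, Ebf2 and Ebf3 higher than in -Dox, whereas Gata4 was called higher in both iPax7 groups. The early B-cell factor Ebf1 had means of 0.554 in +Dox, 40.1 in -Dox and 1888 normalized counts in satellite cells, and it was the 1 of 7 head muscle genes called higher in -Dox than in +Dox (edgeR adjusted p = 0.0017), where 4.66% of all genes were. Gata4, a heart and pharyngeal mesoderm factor, had 612.2, 783.5 and 423.4 normalized counts in +Dox, 358.4 and 280.6 in -Dox, and 0 in all satellite libraries. Of 15 limb bud genes, 11 were tested, and between -Dox and +Dox their lowest edgeR adjusted p was 0.096, for Sall1. Prrx2, Sall1 and Meis1, factors of limb mesenchyme and 3 of the 11, were higher in both iPax7 groups than in satellite cells, with means of 361, 813 and 2223 normalized counts in +Dox and 7.49, 1.34 and 503 in satellite cells. Meox2, which patterns limb muscle, went the other way, at 0.304 in +Dox and 467 in satellite cells (edgeR adjusted p = 0.0028). Lbx1, which migrating limb myoblasts express, had at most 4 counts in any library.

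Among 10 genes listed as targets or partners of these factors (Tbx4 among them), 7 were tested. Between -Dox and +Dox 2 were called higher in -Dox (Cdkn1a and Gja5) and 1 lower (Myf5), where 4.66% and 3.04% of all genes were. Gja5, the connexin gene that Tbx factors regulate in the heart, had 0, 1 and 0 raw counts in +Dox, 6228 and 6432 in -Dox and 103, 225 and 159 in satellite cells. It was called in all 3 comparisons (edgeR adjusted p = 1.23e-05 between -Dox and +Dox). Cdkn1a, the cell cycle inhibitor p21 that Tbx2 represses, was 3.90-fold higher in -Dox than in +Dox (edgeR adjusted p = 0.0018). Cdkn2a, the other cell cycle inhibitor known as a Tbx2 and Tbx3 target, had means of 1090 normalized counts in +Dox, 1085 in -Dox and 0.439 in satellite cells. The myogenic factor Myf5, which acts below Tbx1, Msc and Tcf21 in head muscle, fell 12.4-fold from +Dox to -Dox (edgeR adjusted p = 0.00023). In the same samples 7 muscle differentiation markers (Acta1, Ckm, Myh1, Myh3, Myh4, Myog and Tnnt3) rose as a sum. Their summed level was 140 to 168 CPM in +Dox and 34180 and 34923 CPM in -Dox. Whether Tbx15 and Gja5 moved with this change of state was not tested.

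The peak sets give a second readout, independent of the counts. Each is a merged set with no replicates, so what follows is a description without a test. A gene was taken to carry a peak where at least 1 base of the 1 kb on either side of an annotated start overlapped one, and the share of all 22225 protein-coding genes with such an overlap is the background.

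H3K27me3 lay at the starts of nearly all 10 genes in iPax7 cells: 9 of 10 in +Dox (background 22.4%) and 9 of 10 in -Dox (20.5%). In +Dox the exception was Tbx2, and Tbx3 was touched over 77 bases only. In -Dox the exception was Tbx3. Over the whole gene with 5 kb on either side, peaks of H3K27me3 in +Dox covered 96.2% of Tcf21, 96.1% of Pitx1, 81.8% of Tbx1, 67.7% of Msc, 63% of Tbx4, 41.9% of Tbx3, 36.9% of Tbx18, 26.3% of Tbx5, 23.4% of Tbx15 and 23.3% of Tbx2, and the median of all genes was 0. All 10 values were lower in -Dox, the set in which peaks covered 65.9 Mb of the genome against 91.7 Mb in +Dox. Tbx15 had the lowest share in -Dox, 4.56%, and was the gene of the set that rose in RNA there. The shares of Tbx3 and Tbx2 were also lower in -Dox, at 17.4% and 16.55%. Their RNA means were lower there too (edgeR adjusted p of 0.10 and 0.21). Pitx1 and Tcf21, with no read in RNA, had the highest shares in both, at 89% and 74% in -Dox. In C2C12 cells the Flag control had no H3K27me3 peak over Tbx1, Tbx3, Tbx15 and Tbx18, while 96% of Pitx1 with its flanks was covered. With Pax7-Flag, peaks covered 26.1% of Tbx1, 7.22% of Tbx3 and 6.95% of Tbx15, and Tbx18 had none. Tbx5 went the other way, from 39.27% in the Flag control to 22.25% with Pax7-Flag. The Pax7-Flag peaks covered 160.8 Mb of the genome against 130 Mb in the Flag control.

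**Figure D3:**
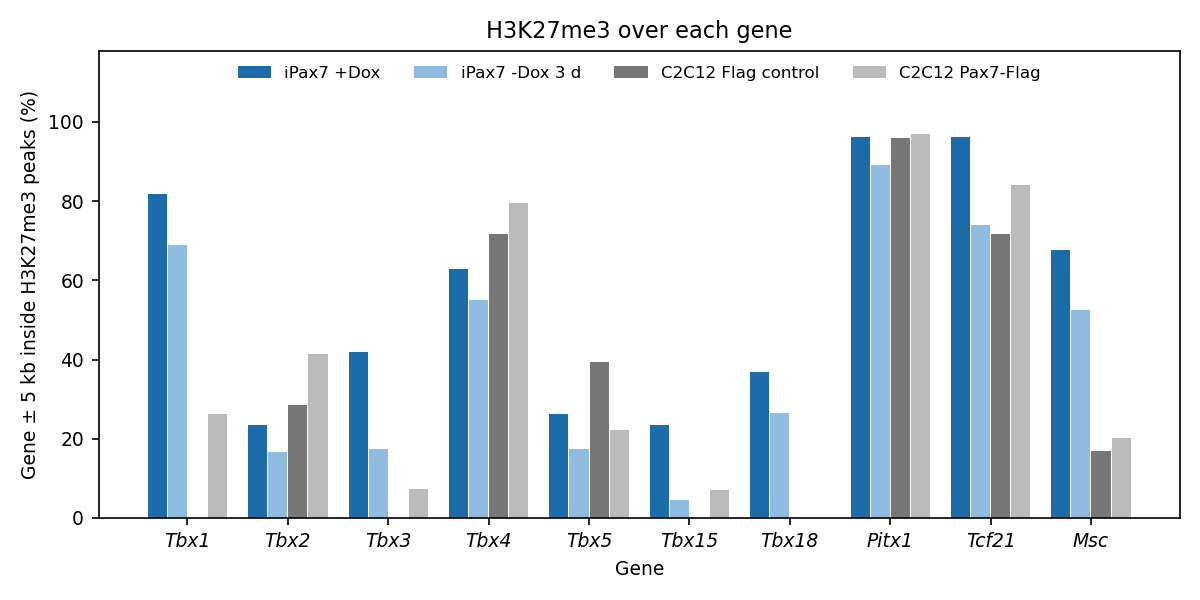
Share of each gene with 5 kb on either side that lay inside H3K27me3 peaks (y axis, percent) in 4 merged peak sets. Pitx1 and Tcf21 had the highest shares in both iPax7 sets, and Tbx15 went from 23.4% in +Dox to 4.56% in -Dox.

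Active marks were at fewer members. H3K27Ac lay at 3 starts in +Dox (Tbx2, Tbx3 and Tbx15, background 48.7%) and at 2 in -Dox (Tbx3 and Tbx15, background 45.8%). At Tbx2, H3K27Ac covered 59% of the gene with its flanks in +Dox and 4.05% in -Dox, beside a mean of 66.6 normalized counts in +Dox and 6.90 in -Dox. These 3 genes were also the ones with the most reads in +Dox. H3K4me3 lay at 6 starts in +Dox (Tbx1, Tbx2, Tbx3, Tbx15, Tbx18 and Pitx1, background 60.9%) and at those and Msc in -Dox (66.6%). Tbx1, Tbx15, Tbx18 and Pitx1 thus carried both H3K4me3 and H3K27me3 within 1 kb of a start in both conditions. At Tbx15 the 3 annotated starts differed. The first, at chr3 position 99044304, had 1880 of 2001 bases in H3K27me3 peaks in +Dox and 1164 in -Dox. The second, at 99057683, had no H3K27me3 peak in any of the 4 sets. Its H3K27Ac covered 1442 bases in +Dox and 1204 in -Dox. The third, at 99100433, went from 636 to 0 bases of H3K27me3 and from 0 to 487 bases of H3K27Ac between +Dox and -Dox. There H3K4me3 went from 0 to 1550 bases and H3K4me1 from 236 to 1340. In C2C12 cells Msc carried H3K4me3 and H3K27Ac, neither of which it had in +Dox iPax7 cells. Its start also lay in H3K27me3 peaks in C2C12 cells, over 1148 bases in the Flag control and 1820 with Pax7-Flag. In +Dox iPax7 cells H3K27me3 covered 1740 bases there.

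**Figure D4:**
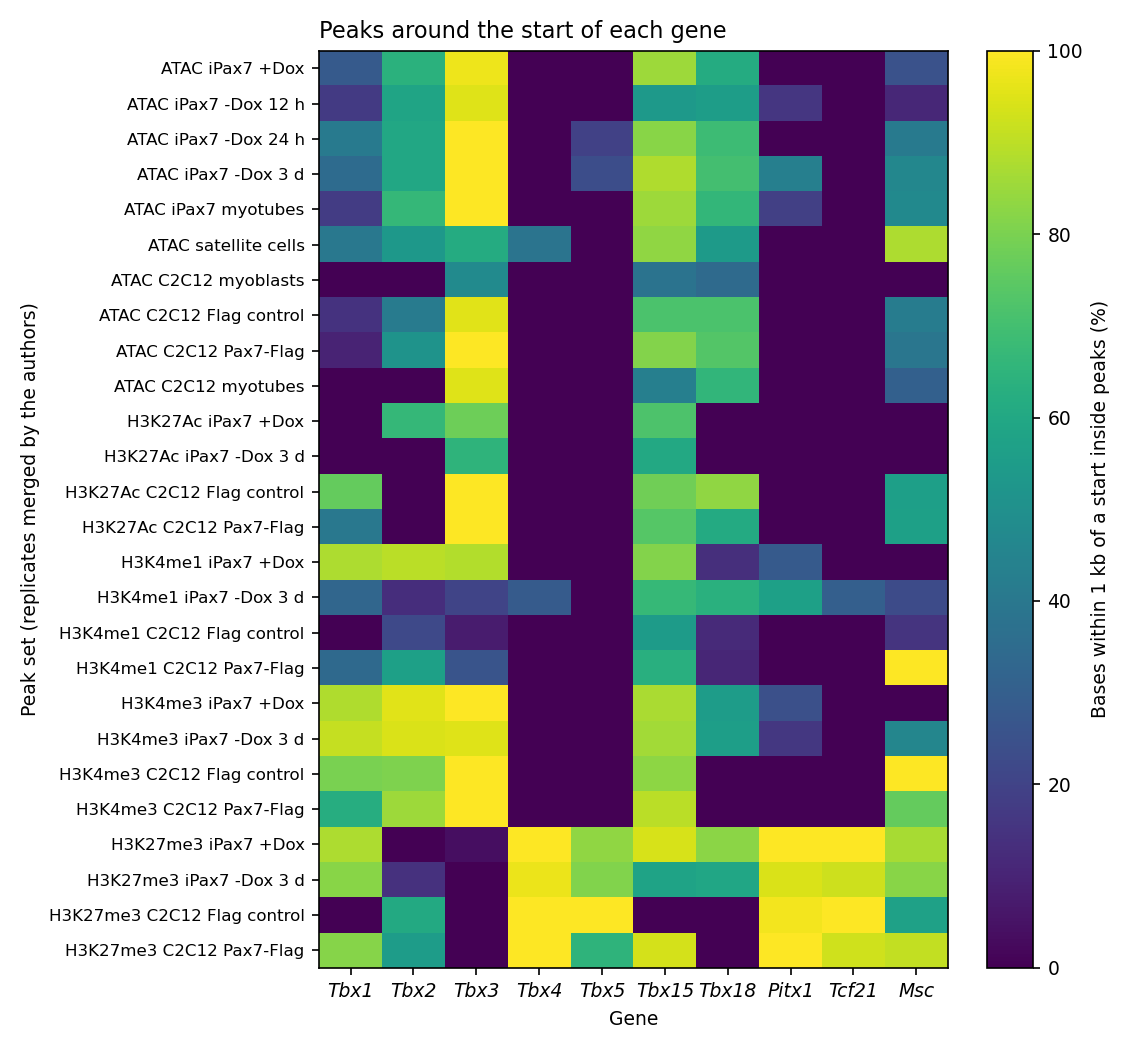
Share of the bases within 1 kb of a start that lay inside peaks (colour, percent, the start with the highest share), for 10 genes (columns) in 26 merged peak sets (rows). Tbx4 was in an ATAC-seq peak in satellite cells and in no other ATAC-seq set, Tcf21 in none of the 10 ATAC-seq sets, and Tbx3, Tbx15 and Tbx18 in all 10.

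In ATAC-seq, 6 of 10 genes had a peak at a start in +Dox (64.0% of all genes), 8 in -Dox at 3 days (66.5%) and 7 in satellite cells (59.2%). Tbx3, Tbx15 and Tbx18 were open in all 10 sets, although Tbx18 had hardly a read, and Tcf21 was open in none. Msc was open in every iPax7 set, with a highest fold enrichment over background of 3.04 to 7.21, without transcripts at +Dox and -Dox, and its peak in satellite cells reached 17.6-fold, 76 bases inside the start. Peaks covered 33.2% of Msc with its flanks in satellite cells, more than in 99.7% of genes, against 3.99% in +Dox. Pitx1 had peaks at 12 h (2.80-fold) and 3 days (6.10-fold) after withdrawal and in iPax7 myotubes (4.17-fold), and none in satellite cells. Tbx5 had weak peaks at 24 h (2.22-fold) and 3 days (3.61-fold) only.

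Within 1 kb of a start, Tbx4 had an ATAC-seq peak in satellite cells alone of the 10 sets, and it had reads in satellite cells alone of the 3 RNA groups. Over the whole gene with 5 kb on either side, peaks covered 1.94% in satellite cells, 1.22% in -Dox at 3 days and none of it in +Dox. The peak, at chr11:85709748-85710516, had a 5.66-fold enrichment (−log10 q of 12.6). It lay at the third of 3 annotated starts, with its summit 267 bases before that start and in an intron of the longer transcripts, and none of the 10 ATAC-seq sets had a peak at the first 2 starts. The 300 bases around the summit, chr11:85709850-85710149 (NCBIM37, plus strand), are shown because they are the accessible sequence that goes with Tbx4 transcripts, with capitals marking the E-box CAGCTG, a form that myogenic helix-loop-helix factors bind:
Tbx4 peak: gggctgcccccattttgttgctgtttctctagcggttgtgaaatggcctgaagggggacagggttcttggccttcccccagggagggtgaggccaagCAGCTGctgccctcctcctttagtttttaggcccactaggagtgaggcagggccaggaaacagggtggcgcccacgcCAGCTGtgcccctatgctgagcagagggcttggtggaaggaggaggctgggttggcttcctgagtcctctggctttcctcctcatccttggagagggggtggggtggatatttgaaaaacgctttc
The window held 2 matches to CAGCTG, which reads the same on both strands. At least 1 was found in 25.9% and at least 2 in 4.66% of windows of the same length around the 90436 ATAC-seq summits of satellite cells.

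Of the 10 genes, only Tbx15 was nearest to any of the 2455 Pax7 sites, and it was nearest to 3. Of all protein-coding genes, 8.13% were nearest to at least 1 and 0.661% to 3 or more. Site 1, chr3:99057584-99059383, spans the second Tbx15 start with its first exon, where the coding sequence begins. Sites 2, chr3:99070492-99071379, and 3, chr3:99071589-99072274, lie in an intron, 13.25 and 14.25 kb from the nearest start. The central 300 bases of sites 1 and 2 are shown as sequence from inside the promoter site and an intronic site (NCBIM37, plus strand, chr3:99058334-99058633 and chr3:99070786-99071085, both intronic). They were taken about the middle of each site, and where within a site Pax7 binds was not tested. Capitals mark TAATTA, which holds the homeodomain half-sites TAAT and ATTA overlapped, and the E-box CAGCTG:
Tbx15 site 1: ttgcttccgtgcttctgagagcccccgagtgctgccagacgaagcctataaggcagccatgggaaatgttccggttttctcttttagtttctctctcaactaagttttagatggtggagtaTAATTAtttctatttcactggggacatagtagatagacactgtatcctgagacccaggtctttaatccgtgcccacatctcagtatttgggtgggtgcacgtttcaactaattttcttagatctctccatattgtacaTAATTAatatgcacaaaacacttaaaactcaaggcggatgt
Tbx15 site 2: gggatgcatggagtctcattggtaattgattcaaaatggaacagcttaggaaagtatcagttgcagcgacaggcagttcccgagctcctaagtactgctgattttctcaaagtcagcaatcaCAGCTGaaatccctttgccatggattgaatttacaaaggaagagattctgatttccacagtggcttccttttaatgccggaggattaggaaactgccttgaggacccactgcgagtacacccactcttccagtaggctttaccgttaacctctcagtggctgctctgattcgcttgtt
The central window of site 1 held TAATTA at 2 places, against 9.69% of the 2455 central windows with at least 1. That of site 2 held 1 CAGCTG, and 25.5% of the windows held at least 1. Over the whole sites the motifs did not separate in this way. CAGCTG occurred 3 times in site 1 and 1 time each in sites 2 and 3, and 43.7% of whole sites held it. Neither the half-sites spaced by 2 bases (1.02% of windows) or by 3 bases (1.71%) nor the paired-domain core GTCACGC on either strand (3.22%) was in any of the 3 windows, and TAATTA and CAGCTG do not overlap each other. The motifs TAATTA and CAGCTG were chosen after the windows had been seen.

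The promoter site and the intronic sites differed in their accessibility. With Dox, all 3 were in ATAC-seq peaks, at up to 22.0-fold enrichment for site 1 and 28.1-fold for sites 2 and 3. Each value is the highest of any peak overlapping the site. Sites 2 and 3 had the same value with the same −log10 q (346.4), which may be that of 1 peak overlapping both. After withdrawal site 1 stayed in a peak, at 5.14-fold at 12 h, 12.3-fold at 24 h and 14.4-fold at 3 days, and it was in peaks in all 10 sets. At site 2 the highest enrichment was 2.57-fold at 12 h, 3.70-fold at 24 h and 4.53-fold at 3 days. At site 3 there was no peak at 12 h, and the values were 2.59-fold at 24 h and 4.53-fold at 3 days. Those peaks covered 104 and 108 bases of site 3. Neither intronic site was in a peak in iPax7 myotubes, satellite cells, C2C12 myoblasts, the C2C12 Flag control or C2C12 myotubes, and both were in C2C12 cells with Pax7-Flag (4.77-fold and 2.74-fold). For comparison, 95.4% of the 2455 sites were in ATAC-seq peaks in +Dox, 63.2% at 12 h, 68% at 3 days, 53% in satellite cells, 38.6% in the Flag control and 71% with Pax7-Flag.

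H3K27Ac also differed between the promoter site and the intronic sites. It covered all 1800 bases of site 1 in both iPax7 conditions, and 694 bases of site 2 and 686 of site 3 in +Dox, with no peak at either in -Dox. In C2C12 cells H3K27Ac peaks touched sites 2 and 3 with Pax7-Flag (89 and 161 bases) and not in the Flag control. Peaks of the other 2 enhancer and promoter marks remained at sites 2 and 3 in -Dox. From +Dox to -Dox, H3K4me1 went from 327 to 826 bases at site 2 and from 593 to 241 at site 3. H3K4me3 went from 431 to 826 bases at site 2 and from 325 to 314 at site 3. At site 1 H3K4me1 went from 1800 to 1171 bases and H3K4me3 covered 1800 in both. The peak sets also differed in size. From +Dox to -Dox, the part of the genome in peaks went from 73.1 to 49.2 Mb for H3K27Ac, from 127.9 to 155.5 Mb for H3K4me1 and from 63.6 to 155 Mb for H3K4me3. No H3K27me3 peak touched any of the 3 sites in any of the 4 sets. Tbx15 RNA was 11.5-fold higher in the condition in which the 2 intronic sites had lower ATAC-seq enrichment and no H3K27Ac peak. In that condition the third Tbx15 start, which is not a Pax7 site, had 487 bases of H3K27Ac, against none in +Dox.

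**Figure D5:**
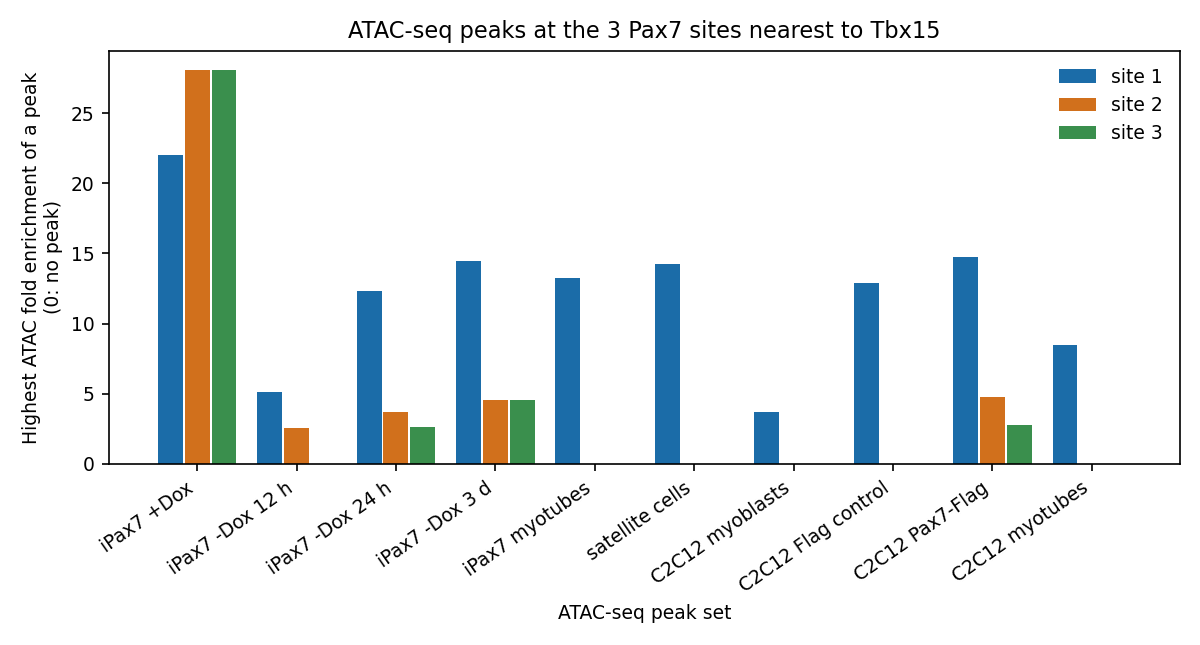
Highest fold enrichment of an ATAC-seq peak that overlaps each of the 3 Pax7 sites nearest to Tbx15 (y axis, 0 where there is no peak), in 10 merged peak sets. Site 1, at the second start, had a peak in every set. Sites 2 and 3 had one in +Dox (28.1-fold for both, possibly the same peak) and in C2C12 cells with Pax7-Flag. After withdrawal their values were lower, and site 3 had no peak at 12 h.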

How the data were processed

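The 10 genes, the gene lists and the tests were chosen with earlier results of these data known. The deposited gene counts (8 RNA-seq libraries, mm9) are raw read counts that the authors made with no normalization; the submitters' processing notes name Trimmomatic 0.32, TopHat2 2.0 and HTSeq 0.6, and the strand setting is not given in the sources used here. Rows that name no gene were left out, the reads not uniquely placed being 7.11 to 30.7% of each table. Counts were filtered with filterByExpr, TMM-normalized and tested in edgeR 4.0.16 (R 4.3.3) with the quasi-likelihood test over all 8 libraries and no block. Benjamini-Hochberg adjusted p under 0.05 over 14836 genes was a call. DESeq2 1.42.0 was an alternative. RPKM used the union of exons.

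ATAC-seq peaks deposited by the authors (MACS2 2.0.10, replicates merged) carry a fold enrichment ratio and a −log10 p and q. The histone and Pax7 peaks deposited by the authors were called with Qeseq, and their coordinates alone were used. The Pax7 sites were those found in at least 2 +Dox replicates and not in -Dox. Peaks were overlapped with 1 kb on either side of annotated starts (NCBIM37), with no test. Named genes were the 10 genes, genes of the family, head muscle, limb bud and target lists (first those called), and the 2 genes most like each of the 4 most abundant members by Pearson's r of log2 CPM. One gene of these lists is not reported here.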

Additional observations from a re-analysis of the deposited data

How the results depend on the processing

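Tbx15 was called higher in -Dox than in +Dox and satellite cells, and Tbx4 and Msc higher in satellite cells, under all 14 alternatives run for each, with an adjusted p for Tbx15 between -Dox and +Dox of 3.67e-10 to 0.0198. The Tbx3 call between +Dox and satellite cells was lost without the filter on low counts (adjusted p = 0.056), with the replicate block (0.077) and without +Dox replicate 2 or 3 or satellite-cell replicate 2 or 3 (0.058 to 0.12). DESeq2 added calls for Tbx2 (adjusted p = 0.038) and Tbx3 (0.0062) between -Dox and +Dox. The Tbx1 difference between -Dox and satellite cells, 0.27 on the log2 scale and not called, became -1.37 without -Dox replicate 2 and -0.05 without satellite-cell replicate 1 or 3, and ranged up to 1.22 without satellite-cell replicate 2. Over all genes, 1142 were called between -Dox and +Dox (60.5% higher in -Dox), 2275 by DESeq2 (51.8%), 2155 with only the libraries of these 2 groups (52.3%) and 4017 with the replicate block (50.4%); the cause was not tested. Leaving out 1 library gave 488 (without -Dox replicate 2) to 1444 genes for that comparison, 3204 (without -Dox replicate 1) to 6131 between -Dox and satellite cells, where 5780 were called with all libraries, and 5159 to 6650 between +Dox and satellite cells (6657 with all). Same-numbered libraries did not deviate together (r of -0.049 to 0.033). With so few libraries in a group, this cannot show whether the numbers pair them. Counts of genes with promoter peaks and Pax7 sites, and the RPKM levels, stayed within 1.5 times under the other windows, overlaps, thresholds and lengths. A stricter score for histone peaks was not run, since those files hold no score. Depth limits Pitx1, Tcf21, Tbx5 and Tbx18, which had 0 to 4 counts.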
